A study of Mus musculus with 9 samples.

Results

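The D10 line is a mouse cell line re-derived from bone marrow on day 10 after embryonic stem cells (ESCs) had been transplanted into mice, and it is compared here with the parental ESC line. The comparison takes 6 of the 9 arrays of the study, 3 labelled D10 and 3 labelled ESC, chosen by their labels alone. All 28853 probe sets entered the test, and 22319 genes could be told apart by name. The ESC line was derived from 3.5-day-old blastocysts of C57BL/6 mice crossed with the Oct4/EGFP transgenic OG2 strain. In these mice the regulatory sequence of Oct4 drives a green fluorescent protein in pluripotent cells. For the D10 line, green cells were sorted from the marrow of the transplanted mice, and colonies of them were picked and expanded. Both lines grew on feeder cells in the same ESC medium, and no further agent or allele is named for either group. The labels add a strain name for each array, from B57BL6/CBA to B57BL8/CBA for ESC and from B57BL12/CBA to B57BL14/CBA for D10, whose number climbs by 1 from sample to sample. The host animals' age and strain, the kind of feeder cell and the number of colonies behind the D10 line are given in none of the sources used here. The remaining 3 arrays, of a D5 line taken on day 5, lent their spread to the fit, and D10 was compared with D5 for a few genes.

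D10 replicates 1 and 3 were nearly the same. The SD of their difference was 0.0686 on the log2 scale over 8292 probe sets with a mean above 6, against 0.154 to 0.201 in the other 8 pairs of arrays within groups. Their difference was smaller than that of any other pair. The pair was averaged and counted once, which leaves n = 2 for D10 and n = 3 for ESC. A D10 mean below is the mean of that average and replicate 2. Each group is described as a single line, so a p-value here reflects how arrays of that line scatter, which may be technical, and says nothing of a second derivation. The level of probe sets for odorant and vomeronasal receptors, which are not expected in these cells, served as a background level. Their 95th percentile lay at a log2 value of 3.65, and genes under it are called below background.

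Naive mouse ESCs hold themselves in the pluripotent state through a network of transcription factors around Oct4 (Pou5f1), Sox2 and Nanog. Interferon is a warning signal between cells. It acts through surface receptors, Janus kinases and STAT and IRF transcription factors, which switch on many antiviral effector genes, and ESCs are known for a weak response to it. Fibroblasts, by contrast, are known for collagen, matrix proteins, actin stress fibres and surface antigens such as Thy1. Imprinted genes are expressed from the allele of 1 parent and are known to change readily in cultured ESCs.

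Relative to the ESC line, the D10 line had lower levels of interferon effector genes and higher levels of collagens, matrix proteins, contractile genes and fibroblast surface markers. Imprinted genes led by Peg10 and H19 were higher as well. The core pluripotency factors stayed at high levels in both lines. In limma, 1536 probe sets were higher in D10 (5.32% of all tested) and 960 were lower (3.33%) at an adjusted p under 0.05, and the median log2 change over all probe sets was -0.02. At least 2-fold changes were seen in 381 of the rises and 91 of the falls, and at least 4-fold changes in 17 rises and 8 falls. In all 381 and all 91, the 3 D10 arrays lay apart from the 3 ESC arrays, which passing both limits makes likely. That share over all probe sets is not given here. Without D10 replicate 2, the array that differs from the near-identical pair, 902 probe sets were higher and 286 lower. The lower count also shrank to 491, 617 and 482 without ESC replicates 1, 2 and 3.

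**Figure D1:**
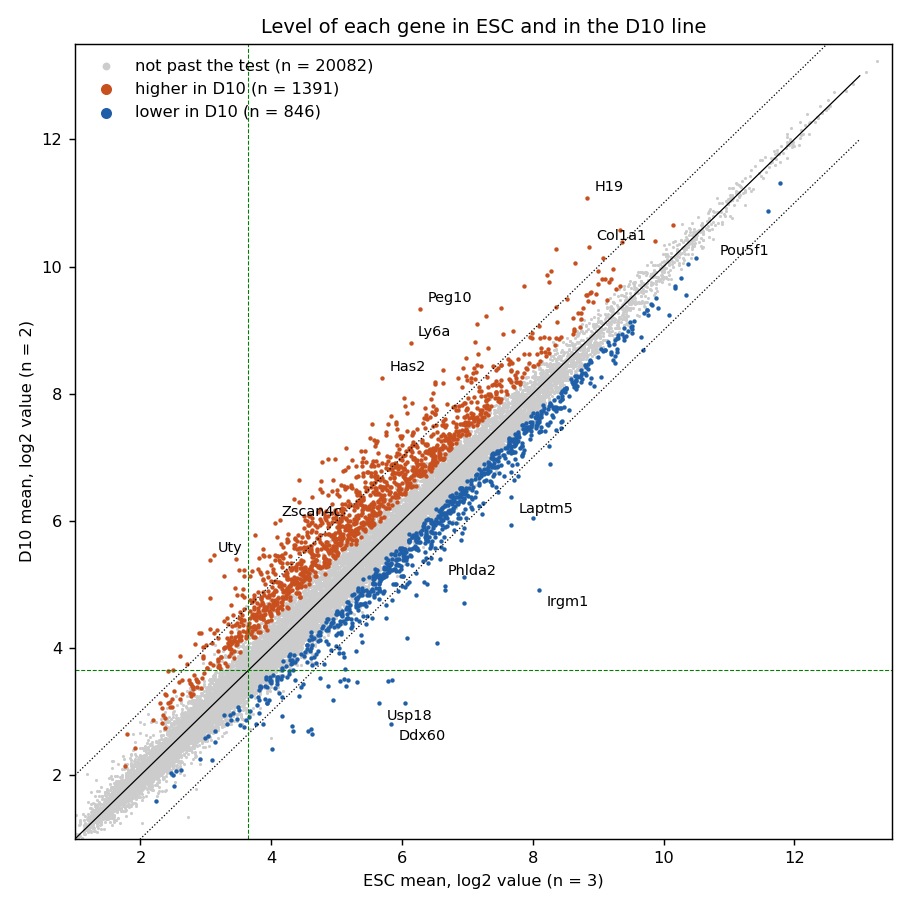
Mean log2 value of each gene in ESC (horizontal, n = 3) against D10 (vertical, n = 2), with 1391 genes higher in D10 in orange, 846 lower in blue and the rest in grey. Solid and dotted lines mark equal levels and 2-fold differences, and the green dashed lines the background level of 3.65. Peg10, Ly6a and Has2 stand farthest above the diagonal among the labelled genes, and Irgm1 and Ddx60 farthest below it.

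Both lines expressed the markers of ESCs. Pou5f1, the Oct4 gene, had log2 values of 10.84, 10.71 and 10.69 in the ESC arrays and 10.52, 10.37 and 10.50 in the D10 arrays. Its D10 arrays were all lower, but the log2 change of -0.31 did not pass (limma, adjusted p = 0.0796). It passed after quantile normalization, with the 9 arrays counted separately and with an intensity trend and robust estimation. Over all the alternatives its limma adjusted p ran from 0.00334 to 0.29. Nanog, a homeobox factor of the same network, had values of 9.82, 9.82 and 9.79 against 9.64, 9.62 and 9.62 (log2 change -0.18, limma, adjusted p = 0.244). Klf4 (log2 change -0.24), Esrrb (-0.25) and Zfp42 (-0.17), further factors or markers of the naive state, did not pass either. The other ESC markers checked, Sox2 (log2 change -0.43), Tdgf1 (-0.71) and Dppa5a (-0.47), passed as lower in D10. Markers of other cells of the marrow were checked, and their part in the results below was not tested. Of 35 leukocyte markers, 21 lay below background in both lines, among them Ptprc (the pan-leukocyte antigen CD45), Itgam, Spi1 and Csf1r. The summed linear level of the leukocyte list was 800 to 818 in the ESC arrays and 646 to 683 in the D10 arrays. For erythroid markers, 8 of 15 lay below background in both lines, and for endothelial markers 3 of 19. The summed level of the erythroid list was 1000 to 1066 in ESC and 650 to 662 in D10. For the endothelial list it was 563 to 576 and 559 to 566. Of the 19 endothelial markers, 4 were higher in D10 and 2 lower (21.1% and 10.5%), against 5.32% and 3.33% of all probe sets. Without ESC replicate 1, 1 was higher and 1 lower.

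The markers of fibroblasts, the usual kind of feeder cell, differed between the lines. Their list of 34 surface and stromal markers had a summed linear level of 2677 to 2894 in the ESC arrays and 6175 to 6835 in the D10 arrays. Of the 34, 29 lay above background in ESC and 31 in D10, and Fap, Meox2 and Tcf21 were below it in both. This list moves with the matrix, contractile and imprinted genes described below, and its part in those results was not tested. In such bulk RNA, fewer cells of a type and less RNA per cell cannot be told apart.

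The plot of all 28 gene lists gives the share of members past the test in each direction. Lists share some members, such as Sparc, Col4a1, Pdgfra and Tfrc, and are described by counts and medians.

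**Figure D2:**
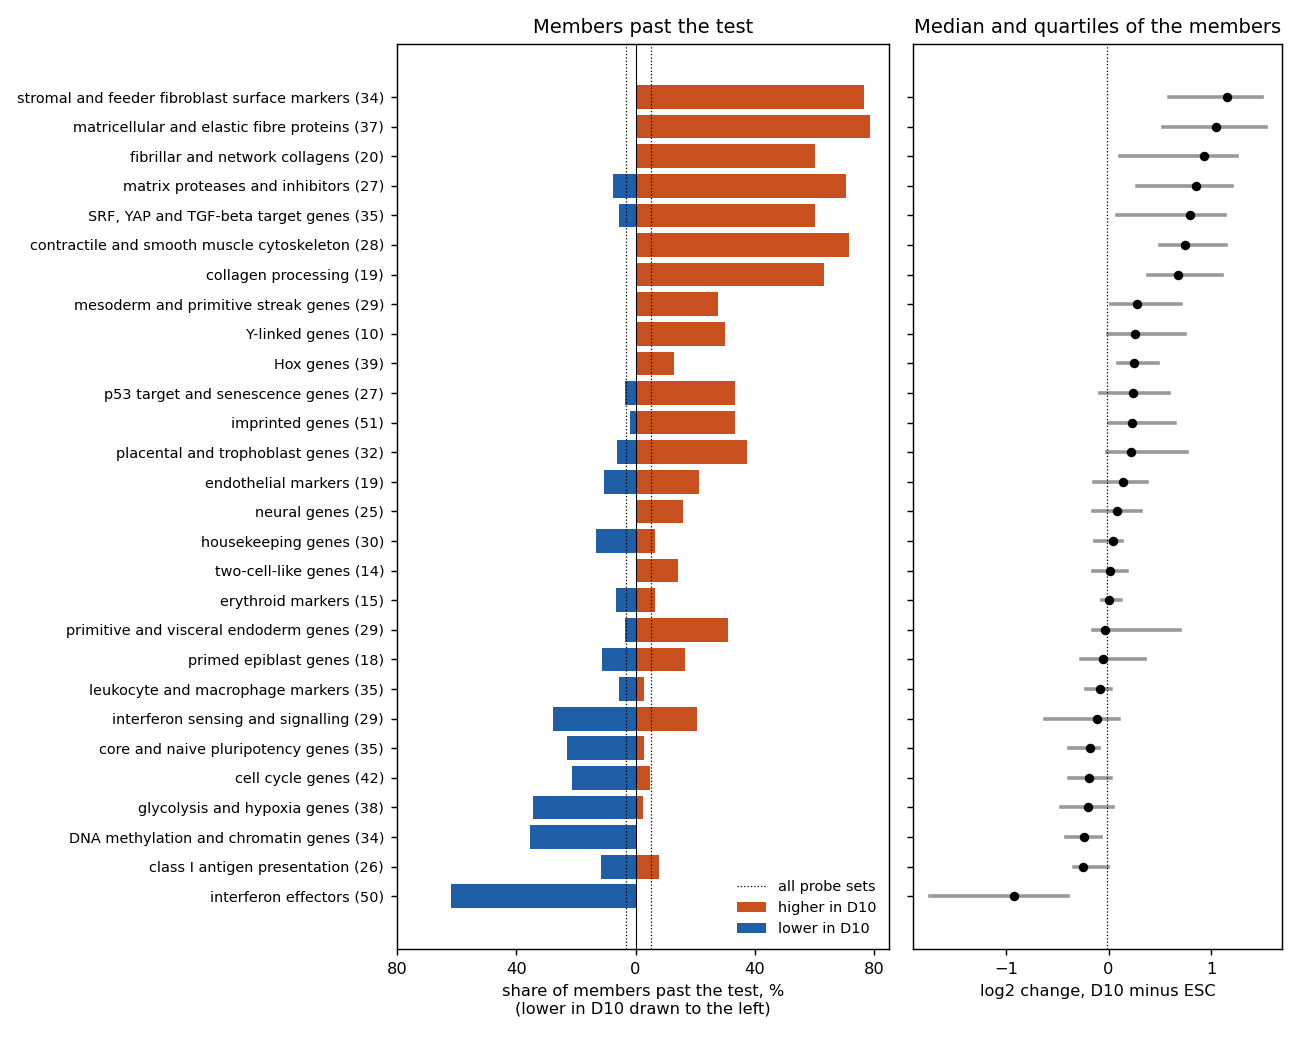
Left, share of each list's members higher (orange, to the right) or lower (blue, to the left) in D10 at an adjusted p under 0.05, with the number measured in brackets and dotted lines at 5.32% and 3.33% for all probe sets. Right, median (point) and quartiles (bar) of the members' log2 changes. Interferon effectors stand at the bottom with 62% lower, and fibroblast markers and matrix proteins at the top with 76.5% and 78.4% higher.

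Interferon effectors, the proteins that act on viruses and other intracellular pathogens, were lower in D10. Of 50 measured, 31 fell, 0 rose and 19 did not pass, which is 62% lower against 3.33% of all probe sets. The median log2 change of the list was -0.92, against -0.02 over all probe sets, and 25 members fell at least 2-fold. Of the 31 that fell, 17 ended below background in D10, so that only a lower bound can be given for their fold, set here against the background level, and their log2 changes are the measured ones. A further 8 members, among them Isg15, Ifit3 and Mx1, lay below background in both lines, where a fall may not show. The number that fell was 25 without D10 replicate 2.

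Irgm1, a GTPase that acts on intracellular bacteria and parasites, had the largest fall. Its log2 values were 8.02, 8.15 and 8.12 in the ESC arrays and 5.09, 4.76 and 5.09 in the D10 arrays. Every ESC array lay about 3 log2 units above every D10 array, and the means of 8.10 ± 0.06 (SD, n = 3) and 4.92 ± 0.24 (SD, n = 2) differ 9.02-fold (limma, adjusted p = 1.08e-05). Rtp4, a chaperone of G protein-coupled receptors that interferon induces, went from 5.89, 6.18 and 6.10 to 3.09, 3.17 and 3.09, which lies below background. Rtp4 was at least 5.28-fold lower (measured log2 change -2.92, limma, adjusted p = 9.49e-06). Usp18, the enzyme that removes ISG15 from proteins and dampens interferon signalling, showed 4.99, 5.87 and 6.08 in ESC and 3.35, 2.96 and 3.24 in D10. Its ESC arrays spread widely (SD 0.58). The groups did not overlap, which was required of the 15 largest falls (log2 change -2.52, limma, adjusted p = 0.000977).

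Among the effectors were oligoadenylate synthetases, which sense double-stranded RNA and switch on RNase L. Oas1g had log2 values of 6.43, 6.59 and 6.58 in ESC and 4.02, 4.11 and 4.07 in D10, a narrow spread in both lines and a 5.48-fold fall (limma, adjusted p = 1.08e-05). Oas1a went from 5.92, 5.85 and 5.59 to 2.74, 3.76 and 3.64, with D10 replicate 1 lowest (log2 change -2.31, limma, adjusted p = 0.000207). Oasl2 fell by 2.23 and Oas1c by 1.85 on the log2 scale, while Oas3, named after its value was seen, did not pass (log2 change -0.56, limma, adjusted p = 0.0973). These paralogs are similar in sequence, so which copy a probe set reads is uncertain. The GTPases Tgtp1 (log2 change -2.35), Irgm2 (-1.87) and Gbp3 (-1.84) fell too. A second probe set of Tgtp1, which also has a near-identical copy, gave a log2 change of -1.71. The antiviral ubiquitin ligase family member Trim30a (-1.96) and the ADP-ribosyltransferase family member Parp14 (-1.91) completed the 12 effectors with the largest falls. The other 19 that fell had log2 changes from -1.74 to -0.42. Among the members that did not pass, the membrane proteins that block virus entry were bright and near their ESC level. Ifitm3 had values of 10.57, 10.66 and 10.59 in ESC and 10.34, 10.28 and 10.32 in D10 (log2 change -0.30, limma, adjusted p = 0.145). Ifitm1 (log2 change -0.05) and Ifitm2 (0.14) lay closer still.

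**Figure D3:**
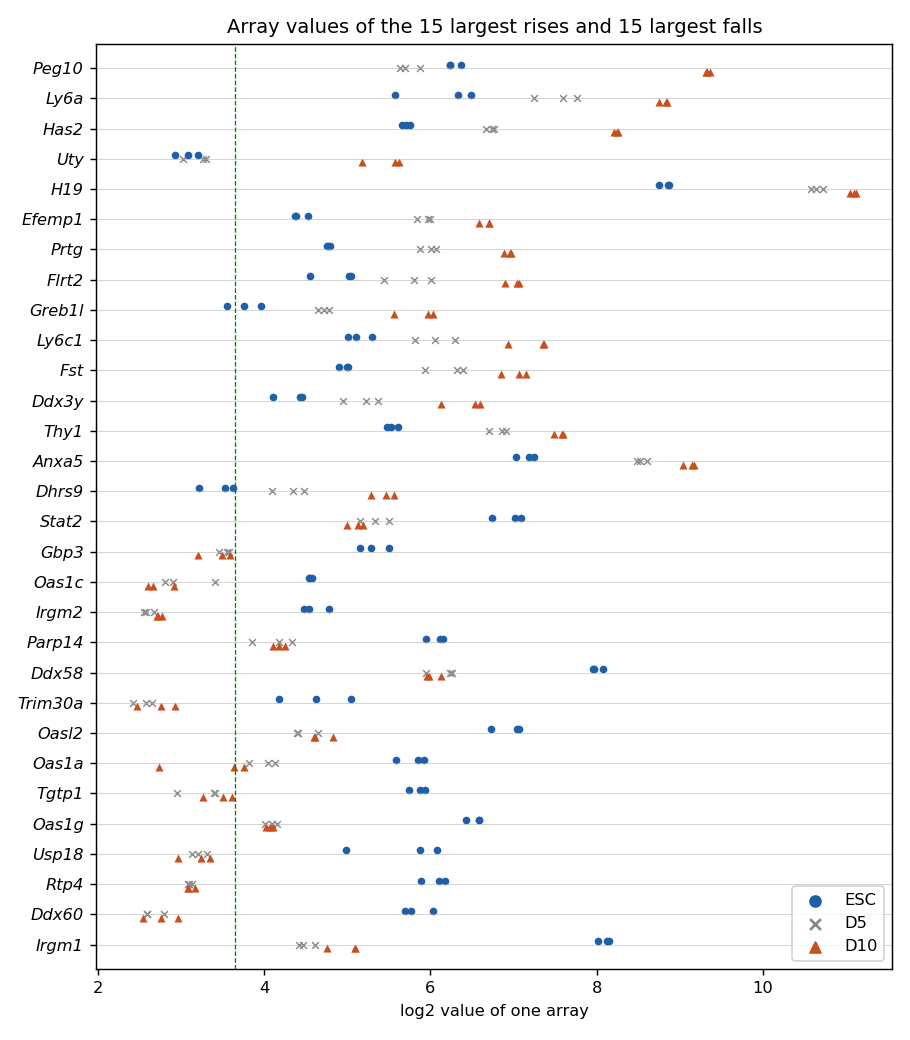
Log2 value of each ESC array (blue circles), D5 array (grey crosses) and D10 array (orange triangles) for the 15 largest rises (top) and 15 largest falls (bottom) from ESC to D10, with the background level of 3.65 as a dashed line. The ESC and D10 arrays of each gene lie apart because the choice of genes required it. The D5 arrays of Peg10 lie under its ESC arrays, and those of Uty overlap its ESC arrays. In other rises, such as Has2 and Ddx3y, the D5 arrays lie between the lines and nearer to ESC.

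Genes that sense nucleic acid or carry the interferon signal moved in both directions. Of 29 measured, 8 fell, 6 rose and 15 did not pass, which is 27.6% lower and 20.7% higher, with a median log2 change of -0.11. The 8 that fell were RNA sensors or transcription factors, a grouping made after their values were seen. The adaptor Mavs (log2 change -0.40) and the kinase Tbk1 (-0.14) did not pass, and the sensors Cgas, Dhx58 and Tlr3 lay below background in both lines. Ddx60, a helicase that assists RNA sensing, had log2 values of 5.70, 5.77 and 6.03 in ESC and 2.54, 2.97 and 2.76 in D10, the latter below background and at least 4.53-fold lower (measured log2 change -3.02, limma, adjusted p = 2.62e-05). Ddx58, which encodes the RNA sensor RIG-I, went from 7.95, 8.07 and 7.97 to 5.98, 6.13 and 5.96 (log2 change -1.95, limma, adjusted p = 9.14e-05). All D10 arrays of both sensors lay well under the ESC arrays, and non-overlap was required of the 15 largest falls.

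Stat2, a transcription factor that type I interferon activates, showed log2 values of 6.74, 7.02 and 7.09 in ESC and 5.13, 5.19 and 5.00 in D10. The D10 arrays were close together and 3.54-fold lower on average (limma, adjusted p = 0.00018). Irf9, which binds DNA together with Stat2, fell by 1.37 on the log2 scale. Irf7, the factor that amplifies interferon gene transcription, ended below background in D10. It was at least 2.87-fold lower (measured log2 change -1.68, limma, adjusted p = 0.000475). The RNA sensor Ifih1 (log2 change -0.82) and the transcription factor Irf1 (-0.62), named after their values were seen, fell as well. Ifih1 also ended below background in D10.

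The 6 genes of the list that rose, also named after their values were seen, were the kinases Jak2 (log2 change 1.04) and Jak1 (0.71), the interferon gamma receptor chains Ifngr2 (0.84) and Ifngr1 (0.62), the type I receptor chain Ifnar2 (0.67) and the DNA-sensing adaptor Sting1 (0.72), which sits on internal membranes. Jak2 had values of 4.76, 4.31 and 4.56 in ESC and 5.80, 5.31 and 5.93 in D10 (limma, adjusted p = 0.0186). The count of 6 was 2 with only the ESC and D10 arrays or without ESC replicate 2, and 3 without ESC replicate 3. The type I receptor chain Ifnar1 had a log2 change of -0.02. The interferon genes themselves, Ifnb1 (log2 change 0.10) and Ifna1 (-0.03), were near background in both lines.

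**Figure D4:**
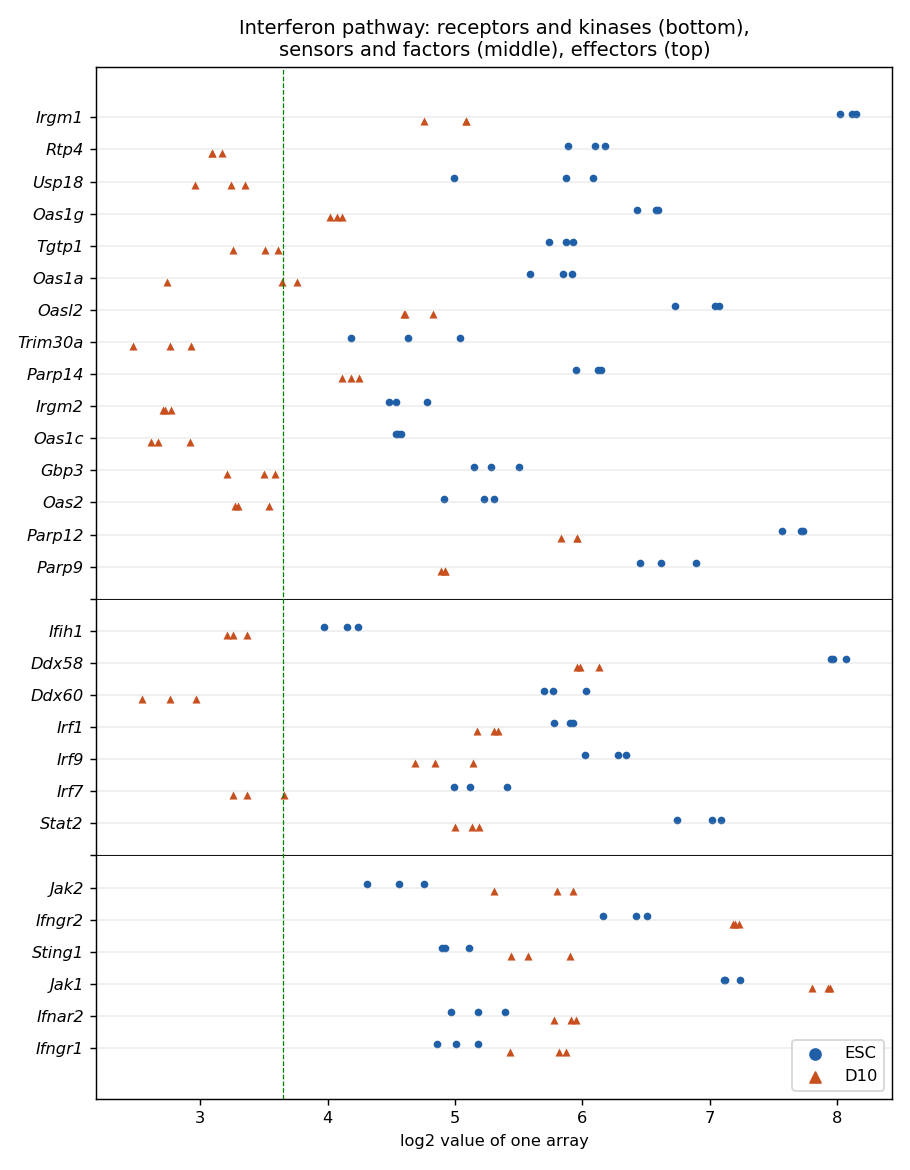
Log2 values of the ESC arrays (blue circles) and D10 arrays (orange triangles) for 6 receptor, kinase and adaptor genes that rose (bottom), 7 sensors and transcription factors that fell (middle) and the 15 effectors with the largest falls (top), with the background level of 3.65 as a dashed line. D10 lies to the right of ESC in the bottom block and to the left in both others.

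The promoters of these genes are shown because interferon acts on them through a known DNA element. The interferon-stimulated response element (ISRE) is bound by interferon-activated factors, Irf9 among them, and its core was searched as GAAANNGAAA on both strands of the RefSeq promoters of build GRCm38.p6, from 250 bases before to 50 bases after a gene's start site. The pattern also takes in repeats bound by other IRF proteins, and overlapping matches are counted at each position. It occurred in 632 of 15969 array genes with a promoter (3.96%), and in 3.44% of 32851 promoter windows. Of the effectors that fell, 21 had a promoter in the table and 13 of these held the core (61.9%). Of those that did not pass, 7 of 16 held it (43.8%). Among the sensing and signalling genes it was found in 4 of 7 that fell (57.1%), in 0 of 5 that rose and in 3 of 14 that did not pass (21.4%). The segments below run 5′ to 3′ along the gene with the core in capitals, read as its reverse complement where it lies on the opposite strand. They are matches of 6 effectors and 2 sensors, all among the 15 largest falls, with Ifitm3, which did not pass, for comparison.
Irgm1, chr11:48871405-48871480, minus strand: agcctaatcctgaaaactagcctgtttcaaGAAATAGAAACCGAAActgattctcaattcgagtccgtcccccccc
Oas1g, chr5:120887586-120887661, minus strand: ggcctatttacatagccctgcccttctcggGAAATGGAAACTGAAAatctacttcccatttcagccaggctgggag
Oas1a, chr5:120907500-120907575, minus strand: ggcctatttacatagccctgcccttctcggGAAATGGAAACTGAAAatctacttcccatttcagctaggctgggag
Tgtp1, chr11:48992284-48992353, minus strand: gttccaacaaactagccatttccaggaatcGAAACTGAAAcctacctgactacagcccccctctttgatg
Gbp3, chr3:142559969-142560044, plus strand: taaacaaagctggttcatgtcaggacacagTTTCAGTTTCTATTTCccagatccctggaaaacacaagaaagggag
Trim30a, chr7:104465190-104465259, minus strand: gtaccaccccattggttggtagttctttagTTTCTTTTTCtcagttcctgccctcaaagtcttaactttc
Ddx60, chr8:61928004-61928107, plus strand: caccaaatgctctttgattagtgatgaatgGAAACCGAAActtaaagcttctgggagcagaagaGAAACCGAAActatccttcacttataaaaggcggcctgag
Ddx58, chr4:40239784-40239853, minus strand: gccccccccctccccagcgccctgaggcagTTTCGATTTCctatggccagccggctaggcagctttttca
Ifitm3, chr7:141010695-141010772, minus strand: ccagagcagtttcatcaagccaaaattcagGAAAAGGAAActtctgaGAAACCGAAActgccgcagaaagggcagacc
The Irgm1 matches begin 30 and 24 bases upstream of the start site and share bases, and those of Oas1g (18 and 12) and Oas1a (20 and 14) overlap in the same way. Ddx60 holds separate copies 53 and 19 bases upstream. Ifitm3 also holds a pair of copies, 2 and 19 bases downstream of its start, so that a match was present in a promoter whose gene did not pass the test.

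Genes of class I antigen presentation, which load peptides onto surface molecules for T cells, moved little. Of 26 measured, 3 were lower and 2 higher, which is 11.5% and 7.69%, with a median log2 change of -0.25. The proteasome activator subunit Psme2 (log2 change -0.62, and -0.11 from a second probe set that did not pass), the class I gene H2-Q6 (-0.44) and the loading factor Tapbp (-0.37) were lower, but the 3 calls fell to 0 without D10 replicate 2, without D5 replicate 3 and without ESC replicates 1 or 3, and to 1 without D5 replicate 1 or ESC replicate 2. The chaperone Pdia3 was higher by 0.62 and the light chain B2m by 0.69 on the log2 scale, of which 1 remained past the test without D10 replicate 2, D5 replicate 3, or ESC replicates 1 or 3.

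Extracellular matrix genes were higher in D10. Of 20 fibrillar and network collagens, 12 rose and 0 fell (60%, against 5.32% of all probe sets), with a median log2 change of 0.93. Their summed linear level was 1769 to 2038 in the ESC arrays and 4196 to 4250 in the D10 arrays. Col3a1, a collagen of loose connective tissue, had log2 values of 6.49, 6.58 and 6.46 in ESC and 8.23, 8.14 and 8.21 in D10. All D10 arrays stood above all ESC arrays by a wide margin, a 3.17-fold rise (limma, adjusted p = 5.25e-05). Col1a1, the main chain of type I collagen, went from 8.71, 9.05 and 8.81 to 10.30, 10.33 and 10.29 (log2 change 1.45, limma, adjusted p = 0.000382). Its partner Col1a2 rose by 1.66, the type VI chain Col6a3 by 1.69 and the fibril-associated Col12a1 by 1.66 on the log2 scale. Col18a1 (log2 change 0.12) and Col27a1 (0.05) did not pass. The probe sets of Col5a2 disagreed, with a log2 change of -0.03 from the brighter one, which is counted here as not past the test, and 1.33 from the other (limma, adjusted p = 0.000231).

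Enzymes that hydroxylate, trim or cross-link collagen followed, with 12 of 19 higher (63.2%), 0 lower and a median of 0.68. The lysyl oxidases, which cross-link collagen and elastin, led this list. Loxl3 rose by 1.40, Loxl1 by 1.39, Loxl2 by 1.30 and Lox by 1.20 on the log2 scale. Lox had values of 5.96, 6.03 and 6.03 in ESC and 7.23, 7.18 and 7.22 in D10 (limma, adjusted p = 0.000145). The collagen chaperone Fkbp10 rose from 6.84, 6.93 and 6.67 to 7.87, 7.77 and 7.84. The procollagen peptidase Bmp1 (log2 change 1.22) rose too, and of the lysyl hydroxylases Plod3 rose (0.44, named after its value was seen), while Plod1 (0.18) and Plod2 (0.24) did not pass.

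Of 37 matricellular and elastic fibre genes, 29 rose and 0 fell (78.4%), with a median log2 change of 1.05. Has2, the enzyme that makes the matrix polysaccharide hyaluronan, had the largest rise of the list. It went from 5.71, 5.66 and 5.75 in ESC to 8.26, 8.24 and 8.21 in D10, both within a very narrow range and 5.79-fold apart (limma, adjusted p = 9.23e-06). Efemp1, a fibulin of elastic fibres, had values of 4.53, 4.38 and 4.37 against 6.71, 6.58 and 6.71 (log2 change 2.22, limma, adjusted p = 2.2e-05). Thbs1, which binds matrix and releases active TGF-beta, showed 8.21, 8.65 and 8.20 against 10.35, 10.20 and 10.33 (log2 change 1.92, limma, adjusted p = 0.000174). The hyaluronan receptor Cd44 (log2 change 1.80), periostin (Postn, 1.75) and the TGF-beta binding protein Ltbp1 (1.74) rose as well. Elastin itself (Eln, -0.12) and Ccn2, a growth factor binding protein (0.01), did not pass.

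Among 27 matrix proteases and inhibitors, 19 rose and 2 fell, with a median of 0.85. That is 70.4% and 7.41%, against 5.32% and 3.33% of all probe sets. Plau, a protease that activates plasminogen, had log2 values of 5.95, 6.25 and 5.93 in ESC and 7.91, 7.73 and 7.89 in D10. The groups did not overlap and lay 3.41-fold apart (limma, adjusted p = 0.000145). The gelatinase Mmp2 rose as well (log2 change 1.28), and so did the metalloproteinase inhibitors Timp2 (1.32) and Timp3 (1.82). Mmp9 and Mmp11, named after their values were seen, fell by 0.80 and 0.46, and neither call held without D10 replicate 2. The lower count was also 1 without ESC replicate 1 or 3.

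Genes of the contractile cytoskeleton, which build stress fibres and the smooth muscle apparatus, were higher in 20 of 28 cases and lower in 0 (71.4%), with a median log2 change of 0.74. Acta2, smooth muscle actin, had values of 8.10, 8.47 and 8.28 in ESC and 10.01, 9.84 and 10.01 in D10. The arrays of the lines did not overlap, and the mean was 3.12-fold higher (limma, adjusted p = 0.000146). Lpp, a focal adhesion protein, rose by 1.75, although its other probe sets gave 1.33 and 0.64, the last of which did not pass (limma, adjusted p = 0.0535). The myosin light chain Myl9 (log2 change 1.60), the actin regulators Cald1 (1.54) and Tagln (1.42) and the intermediate filament vimentin (Vim, 1.23) rose too. Srf, the factor that controls many of these genes, had a log2 change of 0.41 that just missed the threshold (limma, adjusted p = 0.0505).

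The serum response factor binds the CArG box, and promoters with this element are shown for that reason. On both strands it was found in 272 of 15969 genes with a promoter (1.7%) and in 1.63% of the windows, in 3 of 17 contractile genes that rose (17.6%) and in 1 of 7 that did not pass (14.3%). The 3 were Myl9, Cnn2 and Vcl, and the other was Srf itself, with the box in capitals.
Myl9, chr2:156775273-156775342, plus strand: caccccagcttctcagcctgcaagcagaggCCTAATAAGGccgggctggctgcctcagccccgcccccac
Cnn2, chr10:79988514-79988583, plus strand: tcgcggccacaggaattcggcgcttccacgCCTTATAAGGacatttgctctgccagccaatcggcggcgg
Vcl, chr14:20929148-20929210, plus strand: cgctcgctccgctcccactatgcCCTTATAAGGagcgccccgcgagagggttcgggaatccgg
Srf, chr17:46556185-46556274, minus strand: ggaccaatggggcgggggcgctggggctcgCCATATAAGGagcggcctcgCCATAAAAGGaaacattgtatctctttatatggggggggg
The box begins 161 bases upstream of the start in Myl9, 56 in Cnn2 and 227 in Vcl, and Srf holds copies 82 and 62 bases upstream. Cnn2, a calponin of stress fibres, rose by 1.23 and the adhesion protein vinculin (Vcl) by 0.92 on the log2 scale.

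A further list held targets and components of the pathways of SRF, of the mechanical sensor YAP and of TGF-beta. It rose in 21 of 35 cases and fell in 2 (60% and 5.71%), with a median of 0.79. Among the rises were the ligand Tgfb3 (log2 change 1.48), the kinase Nuak1 (1.36), the receptor kinase Axl (1.34), tissue factor (F3, 1.34) and Pmepa1 (1.21), an inhibitor of TGF-beta signalling. Egr1 and Ier2, immediate early genes named after their values were seen, fell by 0.81 and 0.62. The lower count was 0 without D10 replicate 2 and 1 without ESC replicate 2 or 3. Smad7 (log2 change -0.07) and Skil (-0.07), which TGF-beta induces in many cells, did not pass.

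Of 34 stromal and fibroblast markers, 26 rose and 0 fell (76.5%), with a median log2 change of 1.15, the highest of the 28 lists. Ly6a, the surface antigen Sca-1 of stromal and blood progenitors, had log2 values of 6.33, 6.49 and 5.57 in ESC and 8.83, 8.75 and 8.85 in D10. ESC replicate 3 was the lowest, and the ESC spread (SD 0.49) exceeded that of D10 (0.07) (6.33-fold higher, limma, adjusted p = 0.000579). Thy1, the fibroblast antigen CD90, went from 5.48, 5.53 and 5.61 to 7.59, 7.48 and 7.58 (log2 change 1.99, limma, adjusted p = 3.37e-05). Ly6c1, a close relative of Ly6a, rose by 2.01, with 0.82 from a second probe set, and which relative a probe set reads is uncertain. The phospholipid-binding annexins Anxa5 (1.95) and Anxa1 (1.92), caveolin (Cav1, 1.86) and the PDGF receptor Pdgfra (1.43) rose as well. Eng (log2 change -0.01), Mcam (-0.29), Nt5e (0.36) and Anpep (0.39), surface antigens also used to define mesenchymal stromal cells, did not pass. The count was 25 without D10 replicate 2.

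Among the 15 largest rises were also genes outside these lists. Prtg, a surface protein of early embryonic tissue, had values of 4.77, 4.79 and 4.76 in ESC and 6.97, 6.89 and 6.96 in D10, a 4.46-fold difference with hardly any spread (limma, adjusted p = 1.57e-05). Flrt2, a guidance receptor (log2 change 2.11), Fst, the activin antagonist follistatin (2.01), Greb1l (2.02) and the retinol dehydrogenase family member Dhrs9 (1.94) rose too. In Greb1l a second probe set gave 2.30. Dhrs9 lay below background in ESC and was at least 3.36-fold higher in D10.

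Imprinted genes were higher in 17 of 51 cases and lower in 1 (33.3% and 1.96%), with a median log2 change of 0.23. Peg10, a paternally expressed gene derived from a retrotransposon and needed for the placenta (chromosome 6, GRCm38.p6 4747306 to 4760517), had the largest rise of all named genes. Its log2 values were 6.37, 6.24 and 6.24 in ESC and 9.36, 9.31 and 9.32 in D10. The groups were tight and lay about 3 units apart (log2 change 3.04, SE 0.10, 8.24-fold, limma, adjusted p = 9.23e-06). Sgce, its paternally expressed neighbour from 4674350 to 4747204 of the same chromosome, went from 3.77, 3.51 and 3.81 to 5.55, 4.90 and 5.48, with D10 replicate 2 lowest (log2 change 1.51, limma, adjusted p = 0.00112). Of the same imprinted region, Pon2 (log2 change 0.62) and Pon3 (0.74) rose, Ppp1r9a (-0.21) did not pass, and Asb4 lay below background in both lines.

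H19, a maternally expressed noncoding RNA on chromosome 7 (142575530 to 142578146), showed log2 values of 8.86, 8.87 and 8.75 in ESC and 11.12, 11.05 and 11.09 in D10. That is a 4.77-fold rise (limma, adjusted p = 1.15e-05), and a second probe set gave a log2 change of 2.27. Igf2, the growth factor next to it that is expressed from the paternal allele, rose from 6.82, 7.10 and 7.02 to 8.60, 8.53 and 8.57 (log2 change 1.58, limma, adjusted p = 0.00023). Igf2r, the maternally expressed receptor that removes IGF2, rose by 1.24 on the log2 scale. Plagl1, a zinc finger factor of the imprinted network, rose by 1.66, Ndn by 1.11, Dlk1 by 0.98 and Mest by 0.96. Phlda2, a maternally expressed brake on placental growth, went the other way, from 6.54, 6.58 and 6.61 to 5.21, 5.63 and 5.12 (log2 change -1.18, limma, adjusted p = 0.00105). The noncoding RNAs Meg3 (0.17) and Airn (0.25) and the splicing gene Snrpn (0.21) did not pass.

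The plot of imprinted and sex-linked genes shows Xist, the RNA that silences the inactive X chromosome, beside genes of the Y chromosome. Xist had log2 values of 4.71, 4.59 and 4.53 in ESC and 6.20, 5.73 and 6.17 in D10 (2.54-fold, limma, adjusted p = 0.000677). Of 10 measured Y-linked genes, 3 rose and 0 fell (30% higher, against 5.32% of all probe sets). Uty, a histone demethylase family member, was below background at 3.09, 2.93 and 3.20 in ESC and read 5.62, 5.18 and 5.57 in D10, at least 3.34-fold higher (measured log2 change 2.31, limma, adjusted p = 0.0001). Ddx3y, an RNA helicase, went from 4.11, 4.43 and 4.46 to 6.54, 6.13 and 6.60 (log2 change 2.01, limma, adjusted p = 0.000362). Kdm5d rose by 0.75 but stayed below background in both lines and lost its call without D10 replicate 2 or ESC replicates 2 or 3, and the testis-determining gene Sry (log2 change -0.03) did not pass. In Eif2s3y, D10 replicate 2 stood at 3.64 against 4.44 and 4.48 in the near-identical pair, and its log2 change of 0.71 did not pass (limma, adjusted p = 0.127). Several of these genes have a similar copy on the X chromosome, and how far the probe sets tell them apart was not tested.

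**Figure D5:**
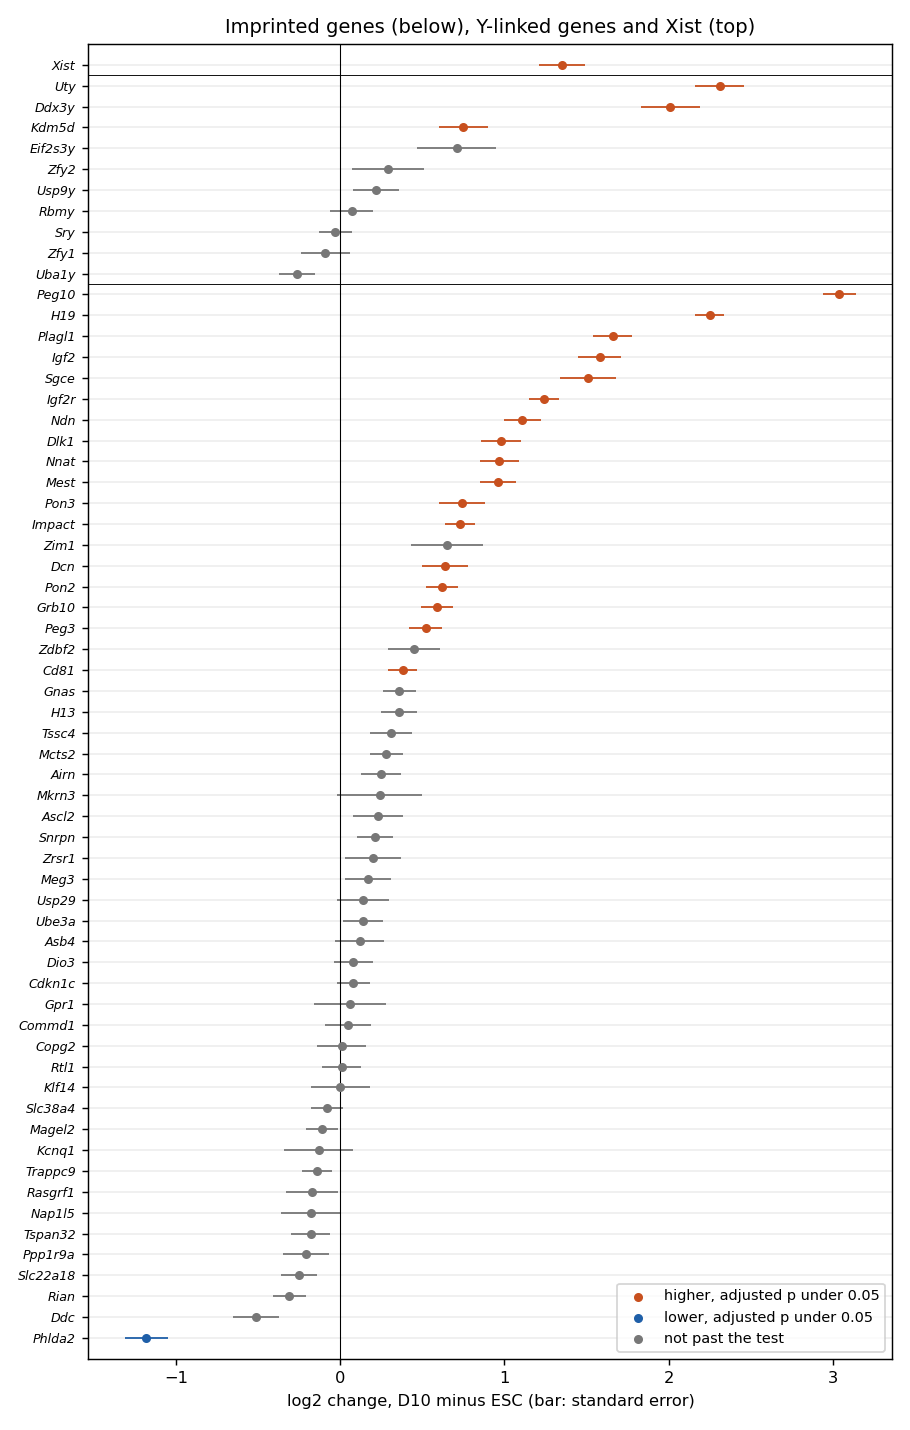
Log2 change from ESC to D10 with its standard error for 51 imprinted genes (bottom), 10 Y-linked genes and Xist (top), in orange where higher and in blue where lower at an adjusted p under 0.05, and in grey otherwise. Peg10 at 3.04 and H19 at 2.25 lead the imprinted genes, and Phlda2 at -1.18 is the blue point.

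For a few genes D10 also stood apart from the D5 line. Over all probe sets, 56 were higher in D10 than in D5 (0.194%) and 6 lower (0.0208%) in limma. These counts dropped to 3 and 1 without D10 replicate 2, to 29 and 1 without D10 replicate 1, to 4, 14 and 5 higher and 0, 0 and 1 lower without D5 replicates 1, 2 and 3, and to 18, 16 and 19 higher and 0 lower without ESC replicates 1, 2 and 3. Peg10 had D5 values of 5.69, 5.88 and 5.63, under those of ESC, and was 12.1-fold higher in D10 than in D5 (limma, adjusted p = 4.5e-06). Uty, below background in D5 too, had a log2 difference of 2.19 from D5 (limma, adjusted p = 0.00225) and Has2 was 2.85-fold higher in D10 than in D5 (limma, adjusted p = 0.000592). These 3 genes kept that call in all 15 alternative fits that give the contrast. Lox (0.97) and Phlda2 (-1.07) also differed between D10 and D5 on the log2 scale, but their limma adjusted p rose to 0.135 and 0.142 in an alternative fit. Lox lost the call without D10 replicate 2, D5 replicate 1 or D5 replicate 3, and Phlda2 without any 1 of the D5 or ESC arrays. Of the 50 interferon effectors, 0 passed between D10 and D5 in limma. With 0.194% and 0.0208% of all probe sets past that test, this count says little about the list. An unadjusted p under 0.05 was seen in 8 of the 50, and that share over all probe sets is not given here. Both contrasts draw on the same D10 arrays.

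The pluripotency list was slightly lower in D10. Of 35 genes, 8 fell and 1 rose (22.9% and 2.86%), with a median log2 change of -0.18. Lefty2, an inhibitor of Nodal, had the largest fall, from 8.40, 8.12 and 8.27 to 7.11, 6.66 and 7.11 (log2 change -1.38, limma, adjusted p = 0.0019). Tdgf1, the Nodal co-receptor, fell from 11.63, 11.59 and 11.54 to 10.89, 10.87 and 10.86, a small step with very little spread (limma, adjusted p = 0.00234). Fgf4 (log2 change -0.81), Dppa4 (-0.72) and the nuclear receptor Nr0b1 (-0.66) fell too. Sox2 fell by 0.43 (limma, adjusted p = 0.0185), a call lost without D10 replicate 2, without ESC replicate 1 or 3, and with only the ESC and D10 arrays. Without D10 replicate 2, 5 of the list were lower and 0 higher. The riser, named after its values were seen, was Spp1 (0.53), which is also a matrix protein.

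Zscan4c, a gene of the two-cell stage that rare ESCs express in bursts, went from 4.24, 3.98 and 3.92 in ESC to 6.19, 5.88 and 5.94 in D10. The lines did not overlap, and the rise was 3.80-fold (limma, adjusted p = 0.000202). Its other probe sets gave log2 changes of 2.13 and 2.05, but Zscan4 genes are near-identical copies and cannot be told apart here. It was 3.65-fold higher than in D5 as well (limma, adjusted p = 0.00665), a call lost without D10 replicate 2. Gm4340, a predicted gene of the same stage, lay below background in ESC and was at least 2.97-fold higher in D10 (measured log2 change 1.71). The other 12 of the 14 genes in that list did not pass (14.3% higher, against 5.32% of all probe sets).

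Genes that write, erase or read chromatin marks were lower in 12 of 34 cases and higher in 0 (35.3%), with a median log2 change of -0.24. Zfp57, which guards methylation at imprinted regions, had log2 values of 8.51, 8.30 and 8.48 in ESC and 7.49, 7.38 and 7.59 in D10 (log2 change -0.97, limma, adjusted p = 0.0013). The dioxygenases Tet2 (-0.94) and Tet1 (-0.79), which oxidise methylcytosine, fell without overlap of the arrays, and so did the demethylase Kdm5b (-0.85) and the Polycomb cofactor Mtf2 (-0.69). Dnmt3l, the partner of the de novo methyltransferases, fell by 0.71 (not past the test without D10 replicate 2 or ESC replicate 1), whereas Dnmt3b (-0.19), Trim28 (-0.28) and Hdac2 (-0.01) did not pass. The count of 12 was 5 without D10 replicate 2 or ESC replicate 1 and 7 without ESC replicate 3.

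Glycolysis and hypoxia genes were lower in 13 of 38 cases and higher in 1 (34.2% and 2.63%), with a median of -0.20. Aldoc, an aldolase, went from 6.34, 6.06 and 6.27 to 5.15, 5.14 and 5.29, and the mitophagy gene Bnip3 from 6.62, 6.46 and 6.28 to 5.43, 5.39 and 5.45. Both log2 changes were -1.04 (limma, adjusted p = 0.000835 and 0.00225). Pfkl, a phosphofructokinase (-0.87), and Pgk1, a phosphoglycerate kinase (-0.57), fell too, while Gapdh (-0.02) and Eno1 (-0.18) did not pass. Vegfa, the vessel growth factor that hypoxia induces, was the riser (0.97). The count of 13 was 5 without D10 replicate 2, 8 without ESC replicate 1 and 7 without ESC replicate 3.

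Cell cycle genes showed 9 lower and 2 higher of 42, with a median of -0.19. That is 21.4% and 4.76%, against 3.33% and 5.32% of all probe sets, so the higher share is not above that of all probe sets. The mitotic and replication genes Bub1b (log2 change -0.53), Top2a (-0.52), Mybl2 (-0.52) and Mcm6 (-0.47) were lower, but 0 of the 9 calls held without D10 replicate 2, and 4 were made without ESC replicate 1. The 2 higher genes were D-type cyclins, Ccnd2 from 7.51, 7.83 and 7.73 to 8.97, 9.04 and 8.92 (log2 change 1.30, limma, adjusted p = 0.000362) and Ccnd1 by 0.51. Of 27 p53 and senescence genes, 9 rose and 1 fell (33.3% and 3.7%), led by the cyclin kinase inhibitor Cdkn1a (0.97) and the kinase Plk2 (0.80). The risers numbered 4 without D10 replicate 2. The faller, Gadd45a (-0.42, named after its values were seen), lost its call without D10 replicate 2, D5 replicate 1 or ESC replicates 1 or 2.

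Of 30 housekeeping genes, 4 were lower and 2 higher (13.3% and 6.67%), with a median log2 change of 0.04. Actb (0.23), Ppia (0.04) and Rps18 (0.14) did not pass, whereas the transferrin receptor Tfrc, also an erythroid marker, fell from 9.68, 9.61 and 9.75 to 8.73, 8.64 and 8.72, and Reep5, a protein that shapes the endoplasmic reticulum, rose by 1.37 on the log2 scale. Without D10 replicate 2, or without any 1 of the ESC arrays, 2 were lower, and 1 was higher without D10 replicate 2, D5 replicate 3, or ESC replicates 1 or 3.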

How the data were processed

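Biotin-labelled total RNA was measured on 9 Affymetrix whole-transcript arrays, 3 each for ESC, D5 and D10, grouped by sample title. Per the labels' protocols, RNA was extracted with Trizol. The submitters' processing notes name MAS5. How arrays were normalized to each other is given in none of the sources used here. The values the authors deposited are on a log2 scale, from 0.70 to 13.82, and 2 to the power of them equals the linear intensity values of the authors' short table of 461 probe sets to within 0.00135%. Probe sets were named through the RefSeq gene table of GRCm38.p6 (18873 by accession, 2487 by symbol, 1740 by an older symbol), the file's name was kept for 2023, and 3730 stayed unnamed. Each gene was represented by its brightest probe set, by the mean of all 9 arrays. Background was taken from 1405 receptor probe sets.

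The contrasts were fitted in limma 3.58.1 (R 4.3.3, lmFit and eBayes), with a mean for each group and 8 samples (degrees of freedom 5 residual, 3.56 prior), two-sided, without a filter and adjusted by Benjamini-Hochberg across the 28853 probe sets, with a threshold of 0.05. The fit was tested on simulated data. Arrays have no read depth, and their small number limits the precision. Replicate numbers did not pair the samples: deviations of same-numbered arrays correlated between -0.303 and 0.193. The members and the 28 lists (813 of 832 names matched) were chosen with earlier results of these data known, so no list was tested. Genes named are the 15 largest rises and falls without overlap between groups and with the brighter group above background, leaving out predicted genes, clone-type names and receptors, then up to 6 called and 4 uncalled members of each list, and 21 genes always named. Genes outside that rule, such as Ndn, Dlk1, Mest, Pon2, Pon3, Cnn2, Vcl, Asb4 and Ppp1r9a, were chosen after their values were seen. Some genes that the rule names are not reported here, though counts and medians of lists include them. Sequences are from RefSeq. Alternatives were only ESC and D10 arrays, robust estimation with an intensity trend, removal of the dimmest 30% of probe sets, median centring, quantile normalization, 9 arrays counted separately, a replicate block and leaving out each array.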

Additional observations from a re-analysis of the deposited data

Results flagged for a closer look

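Among the 30 largest changes from ESC, 8 rises differed between the re-derived lines by the test of the difference itself, the contrast of D10 with D5, in which the shared ESC arrays cancel. The difference in log2 change, D10 minus D5, was 3.59 for Peg10 (limma, adjusted p = 4.5e-06), 2.19 for Uty (limma, adjusted p = 0.00225) and 1.51 for Has2 (limma, adjusted p = 0.000592), and these 3 passed in all 15 alternatives. Prtg differed by 0.94 (limma, adjusted p = 0.0127), a call lost without D10 replicate 2, D5 replicate 1 or D5 replicate 3 (highest adjusted p = 0.138). The remaining 4 were close to the threshold and lost their call without D10 replicates 1 or 2 and without any 1 of the D5 or ESC arrays. They were Dhrs9 at 1.10 (limma, adjusted p = 0.0466), Greb1l at 1.06 (0.0466), Efemp1 at 0.71 (0.0463) and Thy1 at 0.71 (0.0457). For all 8 the 3 D10 arrays lay above the 3 D5 arrays, which their choice by this test makes likely. That share over all probe sets is not given here. The 8 were first chosen as large rises on the same D10 arrays that this contrast uses.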

How the results depend on the processing

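No named gene past the test against ESC changed direction in any of the 16 alternatives that measured it. The direction of the other probe sets was not compared. The count of probe sets higher in D10 than in ESC (1536) ranged from 902 to 1529 when 1 array was left out, and the lower count (960) from 286 to 978. The lower count was 1756 with the 9 arrays counted separately and 532 with only the ESC and D10 arrays. With the replicate block over 9 separate arrays, 1887 were higher and 1312 lower. For D10 against D5, the higher count (56) was 423 with 9 separate arrays, 224 with the intensity trend and robust estimation, 135 without the lowest 30% of probe sets, 175 with the replicate block, and 3 to 50 when 1 array was left out. The lower count (6) was 94, 44, 19 and 18 in the same order, and 0 to 6 when 1 array was left out. Of the calls against ESC, 61.5% were higher in D10, 57% after quantile normalization and 62.4% after median centring, but 75.9% without D10 replicate 2. Of 157 named genes past the test, 121 kept the call in all alternatives that measured them, 36 lost it without D10 replicate 2 and 14 with only the ESC and D10 arrays. Of 112 named genes that did not pass, 21 passed in some alternative, among them Pou5f1 (lowest adjusted p = 0.00334) and Nanog (0.041), both lower in D10. The 30 genes with the largest changes kept their calls in the alternatives that measured them, which for Trim30a and Irgm2 leaves out the removal of the lowest 30%. Leaving out D10 replicate 2 leaves D10 with 1 sample, which is assumed to vary like the other groups.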

Other observations

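Genes of early lineages were described by the same counts, beside 5.32% of all probe sets higher and 3.33% lower. Of 29 mesoderm and primitive streak genes, 8 rose and 0 fell (27.6% higher, median log2 change 0.28), led by the homeobox factor Meis2 (3.54, 3.18 and 3.12 in ESC against 5.35, 4.99 and 5.21 in D10, log2 change 1.85, limma, adjusted p = 0.000213) and the ligand Wnt5a (log2 change 1.54). Without D10 replicate 2 the count was 4. Meis2 lay below background in ESC, so that its rise was at least 2.79-fold. Of 39 Hox genes, 5 rose (12.8%, and 2 genes without D10 replicate 2), among them Hoxd13 (1.11) and Hoxc8 (0.72). In both lines 12 of the 39 lay below background. Of 29 primitive and visceral endoderm genes, 9 rose and 1 fell (31% and 3.45%). The risers included the basement membrane collagens Col4a1 (0.96) and Col4a2 (1.02) and Sparc (0.94), which other lists here also hold, with the endocytic receptor Lrp2 (1.01) and its adaptor Dab2 (1.10). Lama1, the laminin chain made by the same tissue, was the faller (-0.85, named after its value was seen).

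Of 32 placental and trophoblast genes, 12 rose and 2 fell (37.5% and 6.25%, median log2 change 0.22). Beside Peg10, they held the receptor Fgfr2 (1.19), the inhibitor of differentiation Id2 (1.20), the homeobox gene Rhox9 (0.99) and the keratins Krt8 (0.79) and Krt18 (0.78), the last pair named after their values were seen. The regulators Tfap2c (0.02) and Tead4 (-0.13) did not pass, and the count was 6 without D10 replicate 2. The lower count of 2 was 1 without D10 replicate 2, D5 replicate 1 or ESC replicates 2 or 3. Cer1, in the list of 18 primed epiblast genes, rose by 0.71 but lay below background in both lines (means 2.48 in ESC and 3.20 in D10). It lost its call without D10 replicates 1 or 2, D5 replicate 3 or any 1 of the ESC arrays. In the same list Fgf5 (0.99) and Sox4 (0.89) rose, while Otx2 (-1.07) and Zic5 (-0.89, and -0.26 from a second probe set that did not pass) fell. The list was higher in 16.7% and lower in 11.1% of its members. Without D10 replicate 2, 1 of the risers and 0 of the fallers passed, and 1 faller passed without ESC replicate 1. Of 25 neural genes, 4 rose (16%, and 2 genes without D10 replicate 2), led by the intermediate filament Nes (1.18) and the adhesion molecule Ncam1 (1.10). Among the blood lists, Runx1 rose (4.36, 4.36 and 4.33 in ESC against 5.59, 5.62 and 5.52 in D10, limma, adjusted p = 0.000145), and the lysosomal protein Laptm5 fell by 1.29 and Cd68 by 0.73 on the log2 scale.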
